A study of Rattus norvegicus with 21 samples.

Results

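The genes that switch on, release and process the corticotropin precursor were followed in the anterior pituitary of male rats exposed to the synthetic estrogen diethylstilbestrol (DES). The genes of interest were Pomc, Tbx19, Crhr1, Avpr1b, Pcsk1 and Pcsk2, and every probe set to which the platform annotation gave 1 of these 6 symbols was taken. This found 5 of the 31042 probe sets, which stood for 4 of the 6 genes: Tbx19 (1377038_at), Pomc (1384612_at), Avpr1b (1369241_at and 1369240_a_at) and Pcsk2 (1387155_at). No probe set was named for Crhr1, the receptor for corticotropin-releasing hormone (CRH), or for Pcsk1, the protease that cuts corticotropin from its precursor, and both were not analysed here. All 5 probe sets were among the 21858 that passed a filter on low signals.

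Each of the 21 arrays measured RNA of the anterior pituitary of male rats of the inbred ACI, Copenhagen (COP) or Brown Norway (BN) strain. The groups were ACI DES, COP DES and BN DES, with 4 arrays each, whose rats carried an implant with 5 mg of DES under the skin, and ACI control, COP control and BN control, with 3 arrays each, whose implants were empty. Treatment ran for 12 weeks, from implantation at 9 weeks of age to death at 21 weeks, and all rats of all groups received BrdU, a marker of DNA synthesis, at 50 mg/kg given 4 hours before death. ACI and BN rats came from one supplier and COP rats from another, so that supplier and strain cannot be told apart for COP, and all groups were males of the same age. The sample notes state a number of independent replicates that is 1 below the number of arrays in every group, whereas the series design counts each array, and each array was taken here as 1 rat. If that reading is wrong, the p-values measure in part technical spread.

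Corticotrophs are the anterior pituitary cells that make proopiomelanocortin, the product of Pomc, and cut it to corticotropin, the hormone that drives the adrenal cortex to make glucocorticoids. The T-box factor Tbx19 (Tpit) switches on Pomc together with Pitx1, CRH and vasopressin stimulate the cells through the receptors Crhr1 and Avpr1b, and glucocorticoids repress Pomc through their receptor, Nr3c1. Melanotrophs of the intermediate lobe share Tbx19 and Pomc, but there Pcsk2 cuts corticotropin further, to melanocyte-stimulating peptides and beta-endorphin.

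Signals are linear intensities, scaled by the authors to 1 trimmed mean per array, and changes are differences in log2(signal + 16) with their standard error (SE). A change was called at an adjusted p under 0.05 in a fit across all probe sets (limma, Benjamini-Hochberg adjustment over all probe sets of a comparison). The 40th percentile of signals was 67.0 on the lowest array and 90.6 on the highest, and a group mean under 67.0 is given as near the floor. The arrays numbered 1 and 2 (12 arrays) and those numbered 3 and 4 (9 arrays) differed: deviations from the group means correlated at -0.12 in the median between arrays of different sets and at 0.11 between same-numbered arrays, and the cre spike-in was higher on every array of numbers 3 and 4 than on arrays 1 and 2 in 5 of 6 groups, COP controls being the exception. The labels name no batch. The neural lobe hormone genes Avp (vasopressin) and Oxt (oxytocin) were near the floor in every group but COP controls. In COP controls their group means were 121 and 173, although the label names anterior lobe tissue. Oxt spanned 15.7 to 41.9 on COP DES arrays against 81.6 to 230 on COP control arrays. In RNA from whole tissue, a smaller share of a cell type in the gland and less RNA per cell cannot be told apart. A smaller share can come from fewer such cells or from more of the others, and cells were not counted here.

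After DES, the 3 corticotroph genes Tbx19, Avpr1b and Pomc, the last read by 1 dim probe set, were lower and the protease gene Pcsk2 was higher. In ACI, 5 of 5 probe sets were called, 4 of them lower and 1 higher, where 49.1% of all probe sets were called, 29.3% lower and 19.8% higher. In COP, 4 of 5 were called, 3 of them lower and 1 higher, where 43.1% were called, 25.2% lower and 17.9% higher. In BN, 3 of 5 were called, 2 of them lower and 1 higher, where 33.5% were called, 19.4% lower and 14.0% higher. With the change averaged over the 3 strains, 5 of 5 were called, 4 of them lower and 1 higher, beside 62.0% of all probe sets called, 36.7% lower and 25.3% higher. The median log2 change of the 5 probe sets was -1.50 for ACI, -2.03 for COP and -0.85 for BN, beside -0.13, -0.09 and -0.06 over all probe sets tested. Tbx19 and the brighter Avpr1b probe set were called lower in each of the 3 strains, as were 13.4% of all probe sets, and Pcsk2 was called higher in each, as were 9.27%.

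**Figure D1:**
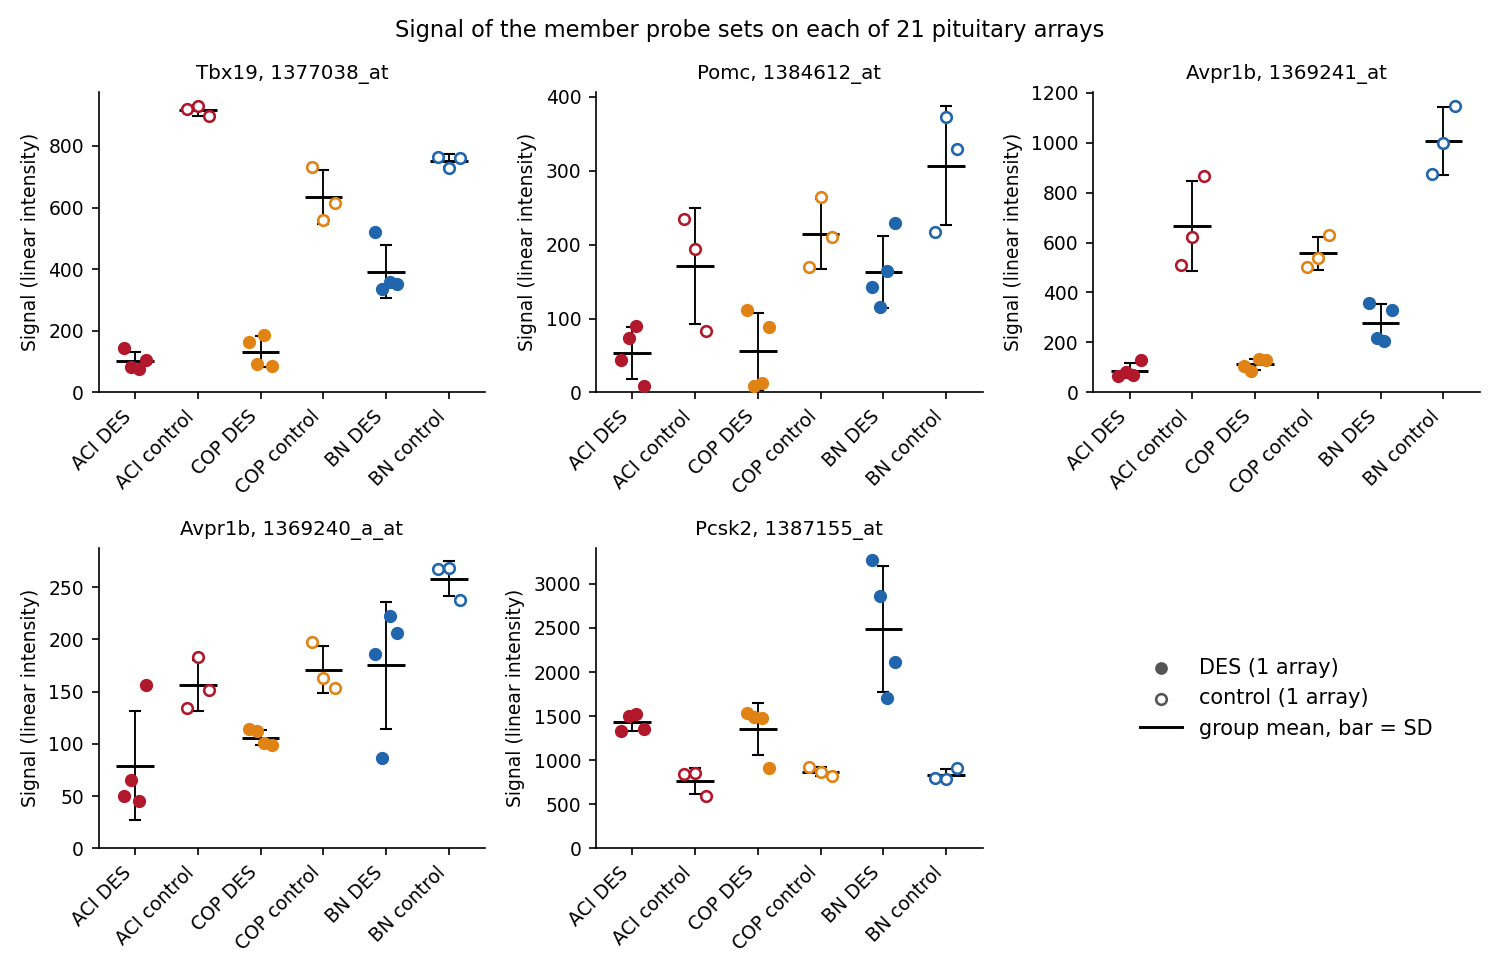
Signal (linear intensity, axes from 0) of the 5 probe sets on each of 21 arrays, with filled points for DES, open points for control, group means as lines and bars of 1 SD either side (n = 4 DES and 3 control arrays per strain). Tbx19 and 1369241_at of Avpr1b lay lower on every DES array than on any control array of the strain, and Pcsk2 lay higher except on 1 COP array at 908.

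Tbx19, the factor that defines both POMC lineages, had the largest fall of the 5 probe sets in ACI and a smaller one in BN. Its signal was 144, 82.4, 76.2 and 106 on the ACI DES arrays, against 920, 929 and 896 on the ACI control arrays. Each ACI DES array thus lay far below each control array, and the 3 control arrays lay close together. In COP it was 162, 92.6, 187 and 86.1 after DES, against 730, 558 and 614 in controls. In BN it was 520, 336, 358 and 352 after DES, against 764, 728 and 762 in controls. The groups did not overlap in any strain, but the BN DES arrays lay well above the DES arrays of both other strains. Such a separation towards lower values was seen in 32.0% of all probe sets in ACI, 27.9% in COP and 21.9% in BN. After DES, every ACI array lay below every BN array in 15.7% of all probe sets, and every COP array in 10.7%.

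Mean Tbx19 signal after DES was 102 ± 30.6 (SD, n = 4), or 11.2% of the control mean of 915 ± 16.9 (SD, n = 3), in ACI. It was 132 ± 50.2, or 20.8% of the control mean of 634 ± 87.5, in COP and 391 ± 86.0, or 52.1% of the control mean of 752 ± 20.1, in BN. In ACI the log2 change was -3.01 (SE 0.223, adjusted p = 2.26e-10 by limma), for COP it was -2.19 (SE 0.223, adjusted p = 5.21e-08) and for BN -0.94 (SE 0.223, adjusted p = 0.00240). Averaged over strains it was -2.05 (SE 0.128, adjusted p = 5.19e-12), with lower values on every DES array than on any control array of its strain. The exact two-sided permutation test over all joint splits of the 3 strains gave p = 2.33e-05 for the average, the smallest it can give, and over the 35 splits within a strain gave p = 0.0286 in ACI and COP, the smallest possible there, and p = 0.0571 in BN. The BN call was lost among arrays 3 and 4 (log2 change -1.07, adjusted p = 0.0572), where 1 control array remained, and held among arrays 1 and 2 (-0.81, adjusted p = 0.0229).

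Pomc, which encodes the precursor itself, was read by 1 dim probe set, above the 40th percentile on 16 of 21 arrays, so that its falls are partly falls to the floor. Its mean over the 21 arrays was 151, beside 448 for Tbx19 and 409 for Avpr1b on 1369241_at. It ranked between percentile 10.6 (COP DES array 2) and percentile 65.5 (BN control array 2) of its array. In controls it was dimmer than Tbx19 in every strain. Whether this probe set reads the Pomc transcript well was not tested, and the changes given for Pomc are those of this probe set. Its signal was 43.7, 73.1, 89.3 and 9.30 on the ACI DES arrays, against 235, 194 and 83.8 on the ACI control arrays. In COP it was 111, 8.50, 13.3 and 89.0 after DES, against 170, 265 and 210 in controls. The COP groups did not overlap, as towards lower values in 27.9% of all probe sets, whereas in ACI 1 DES array lay above the lowest control array. In BN it was 143, 115, 165 and 230 after DES, against 217, 373 and 329 in controls, which overlapped at 1 array.

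Mean Pomc signal was 53.9 ± 35.2 after DES and 171 ± 78.1 in controls in ACI rats, 55.5 ± 52.3 after DES and 215 ± 47.5 in controls of COP, and 163 ± 49.0 after DES and 307 ± 80.5 in controls of BN (SD, n = 4 DES and 3 control arrays), with the ACI and COP means after DES near the floor. In ACI the log2 change was -1.50 (SE 0.515, adjusted p = 0.0192 by limma), for COP it was -2.03 (SE 0.515, adjusted p = 0.00280), and for BN, short of the threshold, -0.85 (SE 0.515, adjusted p = 0.218), which passed in a fit of only the BN groups (adjusted p = 0.0371). Averaged over strains Pomc was lower by 1.46 on the log2 scale (log2 change -1.46, SE 0.297, adjusted p = 0.000195; exact permutation p = 0.000327), and within each strain the exact permutation test gave p = 0.0857. The ACI call was lost without control array 1 (log2 change -1.24, adjusted p = 0.0955), control array 2 (-1.37, adjusted p = 0.0695) or DES array 4 (-1.08, adjusted p = 0.0823). Among arrays 3 and 4 alone no Pomc change with DES passed, with -0.95 for ACI (adjusted p = 0.429), -2.02 for COP (adjusted p = 0.103) and -1.23 averaged over strains (adjusted p = 0.0590).

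The RefSeq promoter window of Pomc (GRCr8) is set on a start at chr6:32659353, which lies 216 bases inside the annotated span of the gene, so the window overlaps that span. The 250 bases before this start hold 2 of the motifs that factors of the corticotroph are known to read, and the stretches around them are shown because genes of those factors are described below. Capitals mark the motif, and the first is the core of the NBRE, the site of the orphan receptors Nr4a1 and Nr4a2, at 70 bases before that start, and the second an E box of the kind bound by Neurod1, at 178 bases before it.
Pomc NBRE core, chr6:32659272-32659301, plus strand: gcgctgccaggAAGGTCAcgtccaaggctc
Pomc E box, chr6:32659163-32659192, plus strand: actttccaggcaCATCTGctgtgcgcgcag
Over 33469 promoter windows of this length, 3.99% held AAGGTCA and 14.0% held CATCTG on either strand, and AAGGTCA overlaps GGTCA, the core letters of the estrogen response element, which 35.4% held. The Pomc window holds GGTCA a second time, on the minus strand (TGACC), at 246 bases before that start. Neither the T-box letters TCACACC (3.22% of windows) nor the bicoid-type letters TAATCC (6.34%) and TAAGCC (7.81%) were found in the Pomc window, which says only that these letters are not in it. The matches describe sequence and were not tested against the signals.

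Avpr1b, the V1b vasopressin receptor through which vasopressin releases corticotropin, was read by a brighter probe set (1369241_at) and a dimmer one (1369240_a_at). On the brighter one the signal was 64.7, 81.1, 71.7 and 129 on the ACI DES arrays, against 511, 623 and 865 on the ACI control arrays. In COP it was 104, 85.8, 134 and 130 after DES, against 502, 538 and 632 in controls. The DES arrays of ACI and COP covered nearly the same range. In BN it was 358, 216, 206 and 328 after DES, against 875, 998 and 1148 in controls. The groups were apart in all 3 strains, as towards lower values in 32.0% of all probe sets in ACI, 27.9% in COP and 21.9% in BN. Mean signal after DES was 86.7 ± 29.2, or 13.0% of the control mean of 666 ± 181, in ACI, 113 ± 22.7, or 20.3% of 557 ± 66.8, in COP and 277 ± 77.5, or 27.5% of 1007 ± 137, in BN (SD, n = 4 DES and 3 control arrays). In ACI the log2 change was -2.74 (SE 0.228, adjusted p = 1.48e-09 by limma), for COP it was -2.16 (SE 0.228, adjusted p = 8.93e-08) and for BN -1.83 (SE 0.228, adjusted p = 1.83e-06). The average was -2.24 (SE 0.131, adjusted p = 1.61e-12; exact permutation p = 2.33e-05), and the exact permutation p was 0.0286 in each strain. These 4 calls held within each of the number sets and without any single array.

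The dimmer Avpr1b probe set, which the annotation ties to 2 gene records of the same symbol, moved the same way by less. Its signal was 50.0, 65.0, 45.6 and 156 on the ACI DES arrays, against 134, 183 and 152 on the ACI control arrays, an overlap made by the 1 DES array at 156. In COP it was 114, 112, 101 and 98.6 after DES, against 197, 163 and 153 in controls, and in BN 186, 86.2, 222 and 206 after DES, against 267, 268 and 238 in controls. The groups were apart in COP, as towards lower values in 27.9% of all probe sets, and in BN, as in 21.9%. The log2 change passed in ACI (-0.98, SE 0.297, adjusted p = 0.00897 by limma) and on average (-0.73, SE 0.172, adjusted p = 0.000891, exact permutation p = 0.000980), but not in COP (-0.61, adjusted p = 0.106) or BN (-0.59, adjusted p = 0.136). Within strains the exact permutation p was 0.114 in ACI, where limma made the call, 0.0286 in COP and 0.0857 in BN. Among arrays 3 and 4 alone the ACI change was -0.70 (adjusted p = 0.341) and the average -0.47 (adjusted p = 0.232). Among arrays 1 and 2 alone the BN change passed (-0.98, adjusted p = 0.0169), against -0.14 among arrays 3 and 4 (adjusted p = 0.873). The COP change passed in a fit of only the COP groups (-0.61, adjusted p = 0.0284), with the replicate number as a block (-0.74, adjusted p = 0.0391) and without ACI DES array 4 (-0.61, adjusted p = 0.0428). The Avpr1b promoter window of RefSeq held 1 of the searched motifs, the bicoid-type site that Pitx factors read (capitals). The site is 178 bases before the start at chr13:45598763 on which the window is set, itself 647 bases inside the annotated span of the gene. That span belongs to 1 of the 2 gene records of the dimmer probe set, and the brighter probe set is tied only to the other. The site is shown beside the 2 Pomc sites.
Avpr1b bicoid-type site, chr13:45598573-45598602, plus strand: gactgggtttccTAATCCtcctccgccaca
No searched motif was found in the windows of Tbx19, whose start lies 9876 bases inside the gene's span, and Pcsk2.

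Pcsk2, the prohormone convertase that cuts corticotropin further in melanotrophs and acts in other endocrine cells too, was the gene that rose. Its signal was 1336, 1498, 1521 and 1358 on the ACI DES arrays, against 842, 850 and 594 on the ACI control arrays. In COP it was 1530, 1489, 1474 and 908 after DES, against 919, 864 and 817 in controls. The COP overlap came from the fourth DES array, which lay within the control range. In BN it was 3272, 2866, 1702 and 2110 after DES, against 795, 788 and 910 in controls, and there the DES arrays were both the highest and the most spread of all groups. Mean signal was 1428 ± 94.6 after DES and 762 ± 145 in controls in ACI, a ratio of 1.88. It was 1350 ± 296 and 867 ± 51.1 in COP, a ratio of 1.56, and 2487 ± 712 and 831 ± 68.5 in BN, a ratio of 2.99 (SD, n = 4 DES and 3 control arrays).

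The log2 change of Pcsk2 was 0.91 (SE 0.192, adjusted p = 0.000424 by limma) for ACI, 0.60 (SE 0.192, adjusted p = 0.0143) for COP and 1.52 (SE 0.192, adjusted p = 2.27e-06) for BN. Pcsk2 arrays stood apart towards higher values in ACI, as in 21.9% of all probe sets, and in BN, as in 14.9%. The average was 1.01 (SE 0.111, adjusted p = 5.16e-08; exact permutation p = 4.66e-05), and within strains the exact permutation p was 0.0286 in ACI and BN and 0.0857 in COP. The COP call was lost without control array 3 (log2 change 0.56, adjusted p = 0.0531) and among arrays 3 and 4 (0.49, adjusted p = 0.164), and held among arrays 1 and 2 (0.75, adjusted p = 1.42e-05). Of the 5 melanotroph markers on the array, Pcsk2 was the only one called higher on average, Tbx19 and Pomc were lower, and Drd2 and Oacyl did not pass. Oacyl was near the floor in ACI DES (55.5), COP DES (57.4), ACI control (52.3) and BN control (52.4) rats, and Pax7, which defines melanotrophs, had no named probe set, so the share of intermediate lobe in the tissue was not tested. Drd2, the dopamine receptor of melanotrophs and lactotrophs, changed by 0.04 on average (adjusted p = 0.720).

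**Figure D2:**
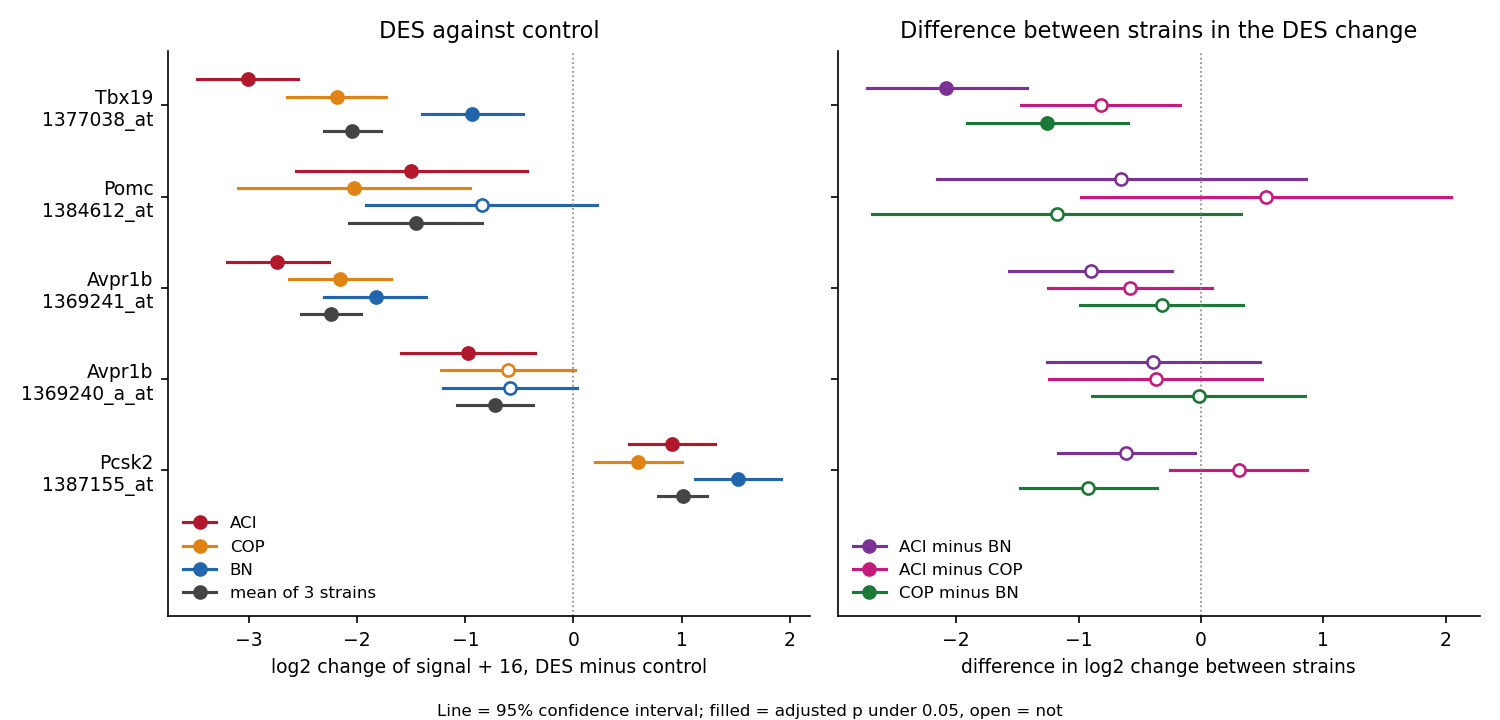
Left, log2 change of signal + 16 with DES for the 5 probe sets in each strain and averaged over 3 strains. Right, the difference between strains in that change. Lines are 95% confidence intervals and filled points passed an adjusted p of 0.05. Tbx19 ran in the order ACI (-3.01), COP (-2.19) and BN (-0.94), and only Tbx19 had filled points on the right, at -2.08 and -1.26.

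The DES response differed between strains for Tbx19. Its log2 change was lower in ACI than in BN by 2.08 (log2 difference -2.08, 95% confidence interval -2.73 to -1.42, adjusted p = 0.000110 by limma) and lower in COP than in BN (-1.26, interval -1.91 to -0.60, adjusted p = 0.0203). Between ACI and COP the difference was -0.82 (interval -1.47 to -0.17), which did not pass after adjustment (adjusted p = 0.333). Differences in response were called for 14.1% of all probe sets between ACI and BN, 5.22% between COP and BN and 0.526% between ACI and COP, and for 1, 1 and 0 of the 5 probe sets here. The COP and BN difference was lost without COP control array 1 (-1.15, adjusted p = 0.0641) and among arrays 3 and 4 (-1.06, adjusted p = 0.349), while that between ACI and BN passed in every alternative run.

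For Avpr1b (1369241_at) the response in ACI exceeded that in BN by 0.90 towards lower values, short of the threshold (log2 difference -0.90, interval -1.57 to -0.24, adjusted p = 0.0660 by limma). With the replicate number as a block the same difference passed (adjusted p = 0.0265), as it did without ACI DES array 4 (-1.08, adjusted p = 0.0219), ACI control array 1 (-1.07, adjusted p = 0.0422), BN DES array 2 (adjusted p = 0.0424) or BN DES array 3 (-1.02, adjusted p = 0.0386). For Pcsk2 the rise in COP was smaller than that in BN (-0.92, interval -1.48 to -0.36, adjusted p = 0.0505), a difference that passed with the replicate block (adjusted p = 0.0162) and among arrays 1 and 2 (-1.18, adjusted p = 0.000106). It passed too without BN DES array 3 (-1.09, adjusted p = 0.0123), BN DES array 4 (-0.98, adjusted p = 0.0486), COP DES array 1 (-0.99, adjusted p = 0.0499) or ACI control array 3 (-0.92, adjusted p = 0.0381). Between ACI and BN the Pcsk2 difference was -0.61 (interval -1.17 to -0.05, adjusted p = 0.148), and it passed without BN DES array 3 (-0.78, adjusted p = 0.0406) and among arrays 1 and 2 (-1.20, adjusted p = 4.07e-05), but was 0.21 among arrays 3 and 4 (adjusted p = 0.756). For Pomc none of the 3 differences passed, and their intervals were wide, from -2.16 to 0.86 between ACI and BN, from -2.69 to 0.33 between COP and BN and from -0.98 to 2.04 between ACI and COP.

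The levels reached after DES separated BN from both other strains. In ACI against BN, 5 of 5 probe sets were lower, where 31.3% of all probe sets were called and 17.6% were lower. In COP against BN, 4 of 5 were lower, where 22.2% were called and 11.8% were lower, and in ACI against COP 0 of 5 were called (0 by limma at an adjusted p under 0.05), beside 4.68% of all probe sets. The log2 difference of ACI minus BN after DES was -1.80 for Tbx19 (adjusted p = 6.93e-07), -1.51 for Avpr1b on 1369241_at (adjusted p = 8.85e-06), -1.07 on 1369240_a_at (adjusted p = 0.00480), -1.51 for Pomc (adjusted p = 0.0188) and -0.75 for Pcsk2 (adjusted p = 0.00240). Of COP minus BN it was -1.50 for Tbx19 (adjusted p = 1.47e-05), -1.16 for Avpr1b on 1369241_at (adjusted p = 0.000352), -1.65 for Pomc (adjusted p = 0.0152) and -0.86 for Pcsk2 (adjusted p = 0.00117). The lower Pcsk2 of ACI and COP thus stood beside a rise with DES, and their lower Tbx19, Avpr1b and Pomc beside a fall. The Pomc differences were lost without ACI DES array 4 (ACI against BN, -1.08, adjusted p = 0.0883), BN DES array 4 (ACI against BN, -1.34, adjusted p = 0.0586), COP DES array 2 (COP against BN, -1.26, adjusted p = 0.0686) or COP DES array 3 (COP against BN, -1.34, adjusted p = 0.0635). Among arrays 1 and 2 alone they were -0.99 for ACI minus BN (adjusted p = 0.171) and -1.37 for COP minus BN (adjusted p = 0.0717). The COP difference did not pass among arrays 3 and 4 either (-1.93, adjusted p = 0.0727), nor when the model held the 2 DES groups alone (-1.65, adjusted p = 0.0568). Among arrays 3 and 4 alone Pcsk2 did not pass in ACI against BN (-0.40, adjusted p = 0.168), nor did 1369240_a_at of Avpr1b (-1.16, adjusted p = 0.0667).

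In control rats fewer differences between strains were called than after DES. Between ACI and COP none was called under either treatment. There Tbx19, Pomc and Pcsk2 were further apart in controls (0.53, -0.39 and -0.20) than after DES (-0.29, 0.14 and 0.11), whereas both Avpr1b probe sets were closer. Only 1 of the 15 differences between strains passed, that of the brighter Avpr1b probe set in COP against BN (log2 difference -0.83, adjusted p = 0.0452 by limma), beside 5.69% of all probe sets called in that comparison, 6.77% in ACI against BN and 1.20% in ACI against COP. In the same comparison 3.04% of all probe sets were lower. That call was lost when 1 was added before log2 in place of 16 (-0.85, adjusted p = 0.0677), without any 1 of the COP or BN control arrays (adjusted p from 0.0672 to 0.184), and without ACI control array 2 (0.0563), ACI DES array 2 (0.0539) or COP DES array 1 (0.0529). In ACI against BN the same probe set passed among arrays 1 and 2 alone (-0.71, adjusted p = 0.0331), beside -0.61 over all arrays (adjusted p = 0.162). On both Avpr1b probe sets every ACI and COP control array lay below every BN control array. For 1369240_a_at the log2 difference was -0.68 for ACI minus BN and -0.55 for COP minus BN. Every control array lay below those of BN for 13.4% of all probe sets in ACI and 14.3% in COP. Tbx19 of ACI controls lay above that of both other strains on every array, by 0.28 over BN (adjusted p = 0.620) and 0.53 over COP (adjusted p = 0.494) on the log2 scale, neither of which passed; such a separation held for 13.1% of all probe sets against BN and 8.70% against COP.

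Ordered by mean signal, the groups ran for Tbx19 from ACI control (915) through BN control (752), COP control (634), BN DES (391) and COP DES (132) to ACI DES (102), with overlapping arrays between BN and COP controls and between COP and ACI after DES. For Avpr1b (1369241_at) they ran from BN control (1007) through ACI control (666), COP control (557), BN DES (277) and COP DES (113) to ACI DES (86.7), with overlap between ACI and COP under either treatment. For Pomc the order was BN control (307), COP control (215), ACI control (171), BN DES (163), COP DES (55.5) and ACI DES (53.9), and of neighbours in it only BN DES and COP DES had no arrays in common range. Pcsk2 ran from BN DES (2487) through ACI DES (1428), COP DES (1350), COP control (867) and BN control (831) to ACI control (762), where only BN DES stood clear of its neighbour. Of all probe sets, 15.7% had every ACI DES array below every BN DES array, and 10.7% every COP DES array.

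Over the 21 arrays, the log2 signals of Tbx19 and Avpr1b (1369241_at) had a Pearson r of 0.94, Pomc had 0.73 with Tbx19 and 0.74 with Avpr1b, and the 2 Avpr1b probe sets had 0.80. These values describe mostly the group means. With each group's mean removed, r was 0.18 for Tbx19 and Avpr1b, -0.20 for Pomc and Tbx19, -0.22 for Pomc and Avpr1b and 0.47 for the 2 Avpr1b probe sets. Pcsk2 had r of -0.43 with Tbx19 over all arrays and 0.38 with group means removed, so the opposite directions between treatments had no counterpart among arrays of 1 group. The arrays share strain, treatment and number set, and no p is given.

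**Figure D3:**
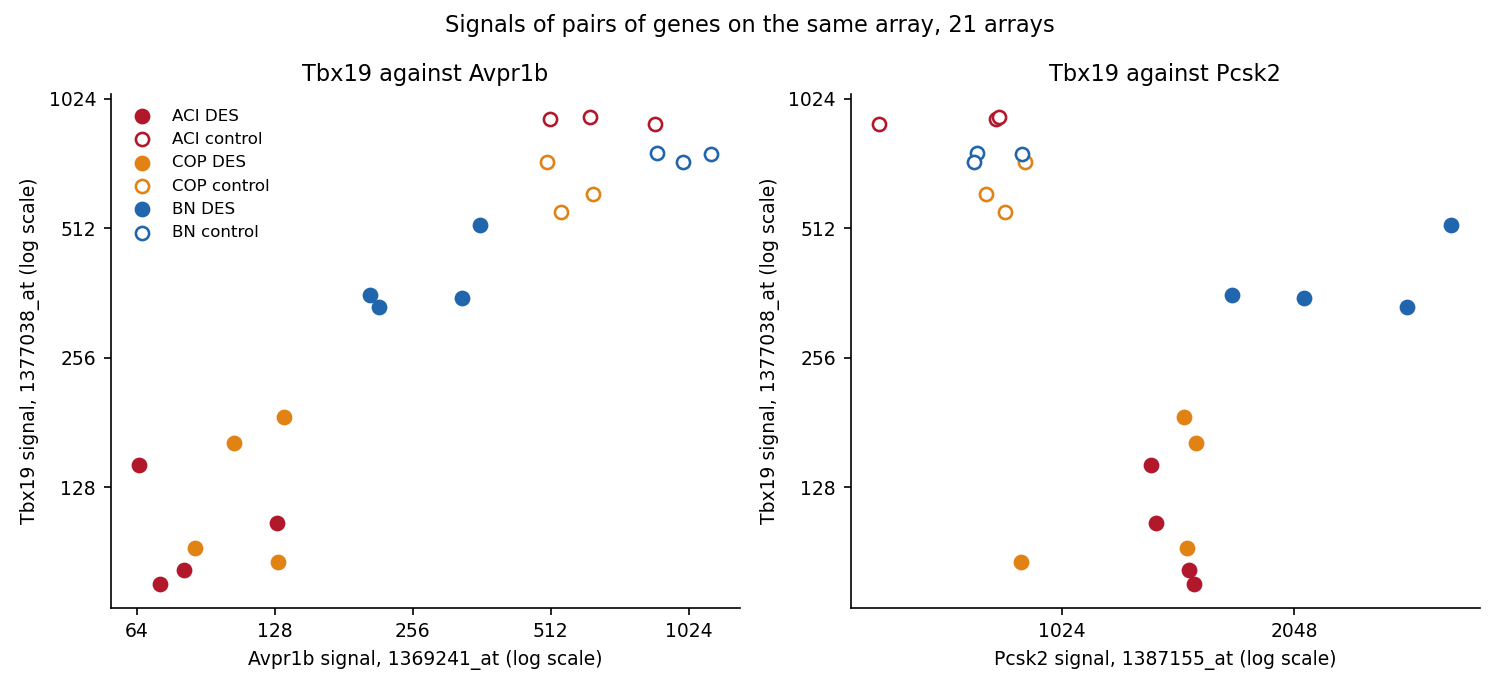
Signals of 2 genes on the same array, both axes on a log scale, for Tbx19 against Avpr1b (left) and Tbx19 against Pcsk2 (right), with filled points for DES and open points for control. On the left the 21 arrays run along 1 diagonal (r = 0.94), with BN DES arrays between the other DES arrays and the controls; on the right the BN DES arrays lie apart at Pcsk2 signals of 1702 to 3272.

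Among 11752 tested genes, those whose log2 signals ran most like Tbx19 over the 21 arrays were Fbxl17l1 (r = 0.982), Apc2 (0.979) and Rimklb (0.975). For Avpr1b they were Trim35 (0.978), Txlng (0.978) and Hsdl2 (0.974), for Pcsk2 Myo5c (0.949), Pbxip1 (0.922) and Hpca (0.920), and for Pomc Grin2c (0.924), 4933427D14Rikl (0.872) and Kcnj5 (0.868). With group means removed, the highest r was 0.792 for Tbx19 (Olfml2a), 0.764 for Avpr1b (Best2), 0.933 for Pcsk2 (Nell2) and 0.905 for Pomc, again with Grin2c. Each is the highest of 11752 values, and how high such a search reaches among unrelated genes was not tested. Grin2c was thus the gene closest to Pomc by both measures. Its mean signal was 83.0 in ACI DES and 179 in ACI control rats, 64.5 (near the floor) in COP DES and 180 in COP control rats, but 146 in BN DES and 156 in BN control rats.

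Among 17 tested genes of corticotroph regulators, 3 were higher, 9 lower and 5 not called with DES on average, beside 62.0% of all probe sets called, 25.3% higher and 36.7% lower. Their median log2 change was -0.33, against -0.09 over all probe sets. Neurod1, the E-box factor of Pomc in corticotrophs, changed in opposite directions between strains, at 291 ± 104 in ACI DES and 460 ± 84.8 in ACI control rats (log2 change -0.68, adjusted p = 0.0214 by limma), 275 ± 23.5 in COP DES and 353 ± 138 in COP control rats (-0.28, adjusted p = 0.361), and 757 ± 41.6 in BN DES and 371 ± 104 in BN control rats (1.03, adjusted p = 0.00182; SD, n = 4 DES and 3 control arrays). All 4 BN DES arrays (706 to 801) lay above the 3 BN control arrays (275 to 482), as in 14.9% of all probe sets. The difference in response of Neurod1 was -1.71 for ACI minus BN (adjusted p = 0.00137) and -1.32 for COP minus BN (adjusted p = 0.0230). Pitx1, the bicoid-type partner of Tbx19, was lower in ACI by 0.99 (-0.99, adjusted p = 2.74e-05) and lower in COP (-0.74, adjusted p = 0.000901), and did not pass in BN (-0.14, adjusted p = 0.564). Isl1, a LIM homeodomain factor of several pituitary lineages, was lower by 1.93 on average (-1.93, adjusted p = 7.09e-09), with an ACI DES mean of 41.6 near the floor, and the retinoid receptor gene Rxrg was lower in each strain (-1.37 on average, adjusted p = 3.16e-10). The orphan receptor gene Nr4a2, which CRH induces, was higher in each strain (1.69 on average, adjusted p = 5.41e-07), as was Egfr, the epidermal growth factor receptor (1.55, adjusted p = 3.06e-10). Nr4a1 did not pass (0.67, adjusted p = 0.0602), and its COP control arrays alone spanned 711 to 6462. Pitx1 and Nr4a1 were picked here after their values were seen.

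Of 11 tested genes of CRH, urocortin and vasopressin signalling, 4 were higher, 2 lower and 5 not called on average (median log2 change 0.08), again beside 62.0% of all probe sets called. Prkcb, a protein kinase C that acts downstream of vasopressin receptors, was higher in each strain (1.15 on average, adjusted p = 1.48e-12), while Plcb1, a phospholipase C of the same path, was lower in each (-0.86, adjusted p = 5.98e-10), and Adcy3, an adenylyl cyclase, was lower on average (-0.99, adjusted p = 0.000408). Gnas, the G protein subunit to which Crhr1 couples, was higher by 0.39 on average (adjusted p = 1.70e-05), but -0.18 under quantile normalization (adjusted p = 0.0123). Under quantile normalization this list had 2 higher and 4 lower. The ligand genes Crh, Ucn, Ucn2 and Avp, the binding protein gene Crhbp and the receptor gene Avpr2 did not pass the signal filter, and Crhbp was near the floor in every group but COP DES (82.1 ± 14.5, SD, n = 4). Of 8 melanocortin receptor and antagonist genes, 4 had a named probe set and none passed the filter, so no test was made.

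**Figure D4:**
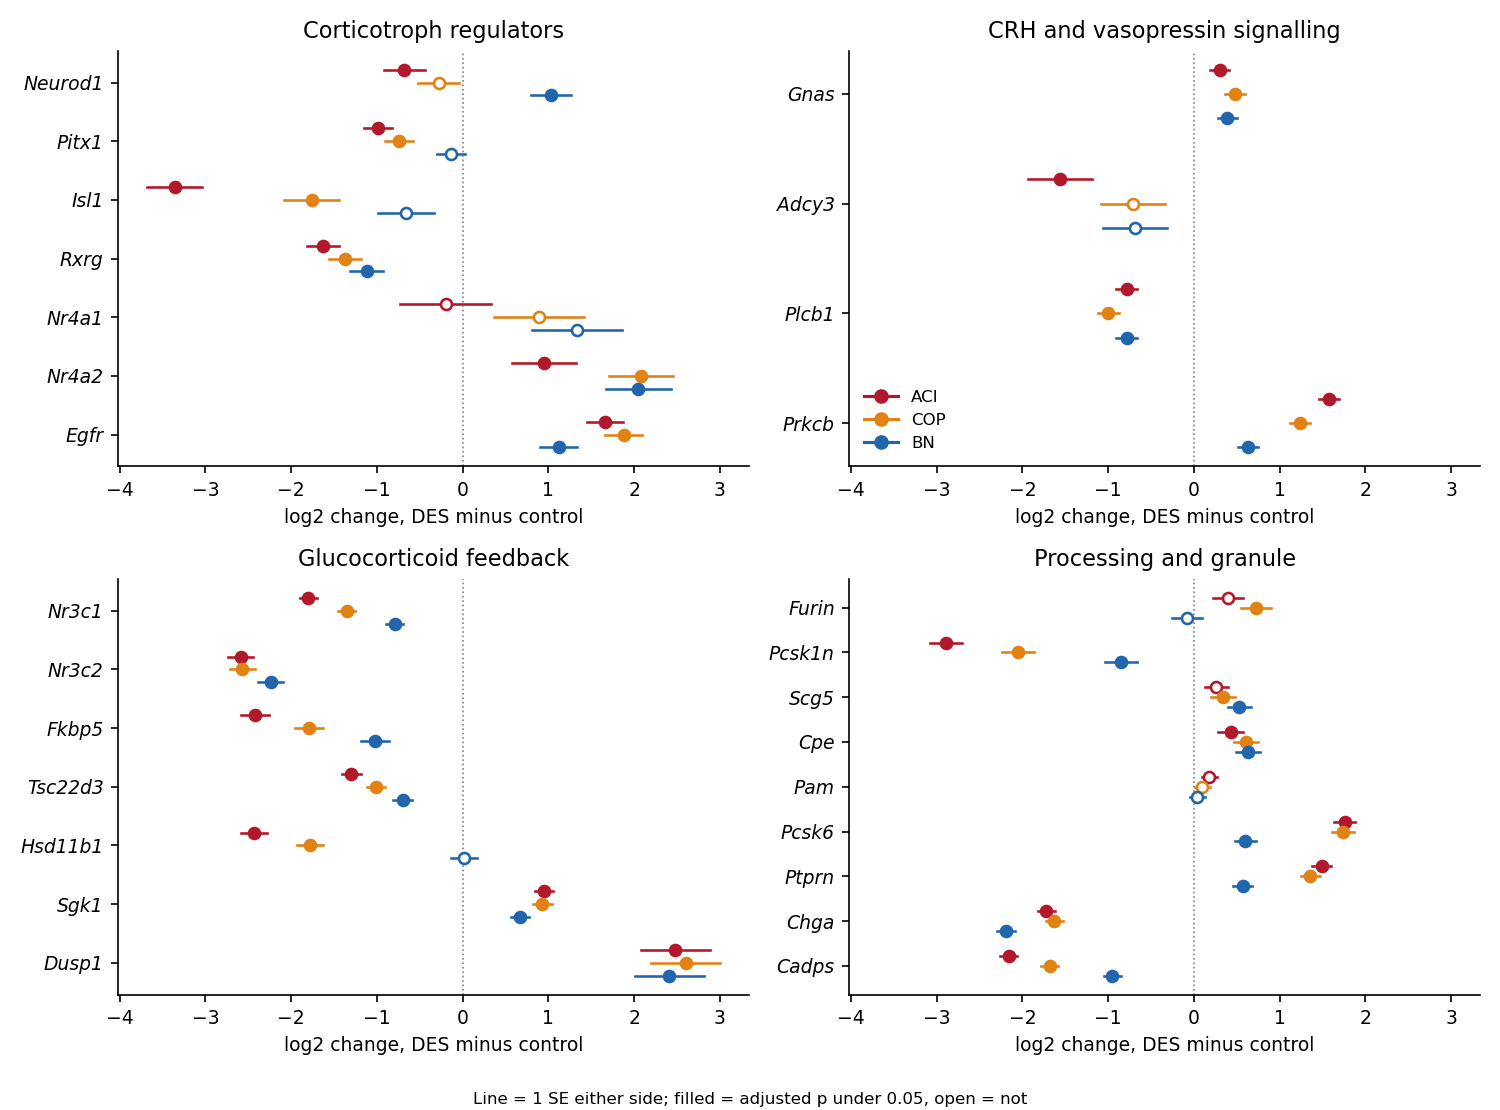
Log2 change of signal + 16 with DES in ACI, COP and BN for 27 genes of the corticotroph pathway, in 4 groups; lines span 1 SE either side and filled points passed an adjusted p of 0.05. Nr3c1, Fkbp5, Pcsk1n and Cadps run from the largest fall in ACI to the smallest in BN, whereas Nr3c2 and Dusp1 lie close together in the 3 strains.

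Of 12 tested genes of glucocorticoid feedback, 4 were higher, 7 lower and 1 not called on average (median log2 change -0.60), beside 62.0% of all probe sets called, 25.3% higher and 36.7% lower. Nr3c1, the glucocorticoid receptor, was at 644 ± 59.4 in ACI DES and 2282 ± 85.1 in ACI control rats, 729 ± 71.7 in COP DES and 1881 ± 41.7 in COP control rats, and 1683 ± 126 in BN DES and 2923 ± 163 in BN control rats (SD, n = 4 DES and 3 control arrays). Its log2 change was -1.80 for ACI (adjusted p = 2.14e-12 by limma), -1.35 for COP (adjusted p = 3.64e-10) and -0.79 for BN (adjusted p = 2.22e-06), and the response differed between ACI and BN (-1.01, adjusted p = 4.48e-05) and between COP and BN (-0.56, adjusted p = 0.0207). Nr3c2, the mineralocorticoid receptor, was lower in each strain (-2.47 on average, adjusted p = 1.82e-16), with no difference between strains past the threshold (-0.35 for ACI minus BN, adjusted p = 0.296). Fkbp5 and Tsc22d3, 2 genes that glucocorticoids induce, were lower on average (-1.74, adjusted p = 5.78e-13 for Fkbp5, adjusted p = 6.35e-12 for Tsc22d3), while Sgk1 and Dusp1, which glucocorticoids and other stimuli induce, were higher (0.85, adjusted p = 5.67e-11, and 2.50, adjusted p = 3.52e-09). Hsd11b1, which regenerates active glucocorticoid inside cells, was lower in ACI by 2.43 (-2.43, adjusted p = 1.48e-11) and in COP by 1.78 (-1.78, adjusted p = 3.53e-09) and stood at 1289 ± 273 in BN DES against 1266 ± 227 in BN control rats (0.02, adjusted p = 0.950), with a difference of -2.45 for ACI minus BN (adjusted p = 2.18e-07). Fkbp5, Tsc22d3 and Hsd11b1 were picked after their values were seen.

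The other genes of propeptide processing and the dense core granule went both ways. Of 20 tested, 11 were higher, 6 lower and 3 not called on average (median log2 change 0.31), where 25.3% of all probe sets were higher and 36.7% lower, but 6 higher and 11 lower under quantile normalization. Pcsk1n, a granin-like inhibitor of the Pcsk1 protease, was lower in each strain, at 1726 ± 349 in ACI DES and 12745 ± 1733 in ACI control rats, 3062 ± 589 in COP DES and 12633 ± 1404 in COP control rats, and 5810 ± 1581 in BN DES and 10182 ± 699 in BN control rats (SD, n = 4 DES and 3 control arrays). Its log2 change was -2.89 for ACI (adjusted p = 2.39e-11 by limma), -2.05 for COP (adjusted p = 9.33e-09) and -0.85 for BN (adjusted p = 0.00119), with a difference of -2.04 for ACI minus BN (adjusted p = 1.80e-05). Chga, the granule protein chromogranin A, was lower (-1.85 on average, adjusted p = 3.51e-17), as was Cadps, which primes granules for release (-1.60, adjusted p = 2.44e-16). Pcsk6, another convertase of the same family as Pcsk2, was higher (1.37, adjusted p = 2.27e-13), as was Ptprn, a granule membrane protein (1.14, adjusted p = 1.11e-12), and both rose more in ACI than in BN (1.15, adjusted p = 0.000110, and 0.92, adjusted p = 0.000475), where the same difference for Pcsk2 was -0.61 (adjusted p = 0.148). Furin, the convertase of the Golgi, passed in COP (0.73, adjusted p = 0.00164) and not in ACI (0.40, adjusted p = 0.0652) or BN (-0.08, adjusted p = 0.781), and the COP and BN difference did not pass (adjusted p = 0.0605). Scg5, the chaperone of Pcsk2, and Cpe, which trims the cut peptides, were higher on average (0.37, adjusted p = 0.000267, and 0.56, adjusted p = 4.49e-06), but at -0.30 and -0.10 under quantile normalization, and Pam, which amidates peptides, did not pass (0.11, adjusted p = 0.0712), against -0.39 under quantile normalization. The DES changes of the 5 probe sets of the 4 POMC genes kept their directions under both other scalings.

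Summed markers of some other cell types moved with the groups and those of others overlapped. The gonadotroph markers, summed over 6 genes, spanned 802.4 to 1010 in ACI DES against 27627 to 34760 in ACI control rats, 1473 to 1500 against 31515 to 35171 in COP, and 2216 to 2726 against 22743 to 30677 in BN, and 5 of 5 tested were lower on average. The corticotroph markers, 7 on the array and 4 of them tested, summed to 351.3 to 376.6 in ACI DES against 1816 to 2050 in ACI control rats, 326.2 to 561.1 against 1501 to 1565 in COP, and 889.2 to 1245 against 2101 to 2467 in BN, a sum that includes Tbx19, Avpr1b and Pomc. The only tested corticotroph marker outside those genes was Tnnt1, at 42.0 ± 12.1 in ACI DES and 77.7 ± 12.6 in ACI control rats, 52.6 ± 29.8 in COP DES and 37.1 ± 22.5 in COP control rats, and 91.6 ± 7.96 in BN DES and 176 ± 14.4 in BN control rats (SD), with no call on average (log2 change -0.40, adjusted p = 0.0849). The leukocyte and macrophage sum over 9 genes was 17123 to 20955 in ACI DES against 7839 to 9015 in ACI control rats, 17507 to 23698 against 9072 to 9541 in COP, and 10289 to 19376 against 10360 to 12514 in BN. The lactotroph sum was 45765 to 57329 in ACI DES against 40818 to 57921 in ACI control rats. In COP it was 48181 to 60608 against 45138 to 49141, and in BN 42496 to 74891 against 37514 to 41308. A sum of linear signals mostly follows its brightest gene, so it does not measure the share of a cell type. The lactotroph markers went both ways, with average log2 changes of 0.60 for Prl, -4.24 for Agtr1b and -0.68 for Pou1f1. Pou1f1 is also in the somatotroph and thyrotroph lists. The somatotroph sum was 33802 to 38383 in ACI DES against 31265 to 52626 in ACI control rats. In COP it was 39627 to 47097 against 34468 to 35386, and in BN 37940 to 66254 against 28038 to 34133. The thyrotroph sum was 15323 to 16336 in ACI DES against 35539 to 48972 in ACI control rats. In COP it was 13350 to 18338 against 39094 to 41456, and in BN 33099 to 55086 against 36138 to 38327. The folliculostellate sum was 1964 to 2568 against 11012 to 13039 in ACI. In COP it was 3328 to 3968 against 10915 to 11985, and in BN 6225 to 7247 against 15213 to 16456. The part of these cell types in the changes of the POMC genes was not tested.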

How the data were processed

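RNA of 21 anterior pituitary glands was hybridized in 1 color to Affymetrix Rat Genome 230 2.0 arrays. The deposited values are linear intensity signals per probe set, which the authors scaled to a common trimmed mean of 500.1 to 500.2 per array (2% trimmed from each end). The summarization software is not given in the sources used here, and scanner files were not used. Of 31099 probe sets, 57 control probe sets were left out. Probe sets were tested if their signal passed the array's 40th percentile on 3 or more arrays. The linear model of log2(signal + 16) had 6 group means over 21 arrays (limma 3.58.1, R 4.3.3; variance trend, 21.64 total degrees of freedom), and the code was tested on simulated data. Each of 13 comparisons had its own Benjamini-Hochberg adjustment of two-sided p-values. Exact permutation tests enumerated the 35 splits within a strain, or all joint splits of the 3 strains. Adding 16 understates changes of low signals, and the number of arrays limits precision. Genes were named by symbol, 1 leading probe set (highest mean) per listed gene, and only probe sets with 1 symbol. The shares over all probe sets also hold dimmer and unnamed probe sets, so they are not matched to the list counts. The text names all members, per list the 2 higher and 2 lower genes with the smallest average adjusted p, and a few genes chosen by role. The lists are 5 of the pathway and 12 of cell type markers. Promoter windows and gene names came from RefSeq (GRCr8). The members and lists were chosen with earlier results of these data known. Alternatives numbered 33: other added constants, filters, scalings and variance models, blocks, subsets by array number, and each array left out.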

Additional observations from a re-analysis of the deposited data

Results flagged for a closer look

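Among 15 groups of 4 DES arrays examined, 3 strains for each of 5 probe sets, 2 had 1 array far from the other 3, where chance gives about 1 in 20. For Tbx19 the highest BN DES array (520) lay apart from the other 3 (336 to 358), with a gap of 0.881 of the group's range, past Dixon's critical value. For Pcsk2 the lowest COP DES array (908) lay apart from the other 3 (1474 to 1530), with a gap of 0.910 of the range.

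The DES response of Tbx19 differed between strains by a test of the difference itself, at -2.08 on the log2 scale for ACI minus BN and -1.26 for COP minus BN. Without BN DES array 1, the array that stood apart, these were -1.94 for ACI minus BN and -1.12 for COP minus BN, and both still passed the threshold.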

How the results depend on the processing

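Over 65 values, 5 probe sets in 13 comparisons, and up to 33 alternatives, 2039 of 2127 repeats kept the direction and the side of the threshold, 38 lost the call, 27 gained it and 23 changed sign, none of them called before or after. For Pcsk2 these were ACI against BN in control (0.09 with arrays 1 and 2, -0.23 to 0.03 with 1 array left out), COP against BN in control (-0.15 with arrays 3 and 4), ACI against COP after DES (-0.09 with arrays 1 and 2, -0.07 to 0.18 with 1 array left out), and the responses of ACI minus BN (0.21 with arrays 3 and 4) and ACI minus COP (-0.02 with arrays 1 and 2). For Pomc they were ACI against COP in control (0.00 with arrays 1 and 2, -0.65 to 0.01 with 1 array left out) and after DES (-0.10 with arrays 3 and 4, -0.25 to 0.57 with 1 array left out). For 1369240_a_at of Avpr1b it was the response of COP minus BN (0.01 with 64 added, 0.00 with median centring, 0.38 with arrays 1 and 2, -0.30 to 0.11 with 1 array left out). The counts of called probe sets that moved most came from arrays 3 and 4 alone, with 3 of 5 in ACI, 2 in COP, 3 on average, 3 in ACI against BN after DES, 0 in COP against BN in control and 0 for the response of COP minus BN. Arrays 1 and 2 alone gave 1 in ACI against BN in control and, for the responses, 3 for ACI minus BN and 2 for COP minus BN. In COP against BN in control the count was 0 with 1 added before log2, with no filter, with median centring and with no variance trend, and 0 to 1 with 1 array left out. The response of ACI minus BN had 2 with 1 added before log2 and 1 to 3 with 1 array left out, and that of COP minus BN had 2 with 64 added, with the filter at the 60th percentile and with quantile normalization, and 0 to 2 with 1 array left out. The cause was not tested. At the 60th percentile filter 1369240_a_at of Avpr1b was not tested. Many repeats could change little, since leaving out an array outside the groups compared does not move the log2 change. Values called in neither run also count as kept.

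The replicate numbers were not taken to pair the arrays, since correlations of deviations between same-numbered arrays ran from -0.05 to 0.32 (median 0.11, 32 of 48 over 0.1), and those with the other number of the same set had the same median, while those with a number of the other set had a median of -0.12 (0 of 90 over 0.1). With the replicate number as a block, as with the 2 number sets as a block, the response count was 2 of 5 for ACI minus BN and 2 for COP minus BN, and over all probe sets 1774 were called for COP minus BN, beside 1142 without the block, and 252 for ACI minus COP, beside 115.

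Over all probe sets, counts moved by over 1.5 times with arrays 3 and 4 alone (7085 in ACI beside 10725, 5888 in COP beside 9419, and in controls 581 for ACI against BN beside 1479, 51 for ACI against COP beside 263 and 370 for COP against BN beside 1243). With arrays 1 and 2 alone the control counts were 3172, 1488 and 2108. Arrays 3 and 4 alone gave 471 in ACI against COP after DES beside 1024, and for the responses 473 for COP minus BN and 21 for ACI minus COP, for which arrays 1 and 2 alone gave 474. With 1 array left out the counts were 976 (without BN control 1) or 978 (without ACI control 2) for ACI against BN in control, 146 to 166 for ACI against COP in control without ACI control 1 or 2 or COP control 1 or 2, and 782 (without BN control 1), 805 (without COP control 2) or 817 (without BN control 3) for COP against BN in control. For the responses they were 48 to 52 for ACI minus COP without ACI control 1 or 2 or COP control 1 or 2, and 714 (without COP control 2) or 759 (without BN control 1) for COP minus BN. The number sets as a block gave 412 in ACI against COP in control, and for the responses 283 for ACI minus COP and 1887 for COP minus BN. A fit of only the groups compared gave 2950 in COP against BN after DES beside 4859. Median centring moved the ACI median over all probe sets to 0.08 from -0.13 and the share of calls that were higher to 57.4% from 40.4%, and on average to 53.4% from 40.9%. The 5 POMC probe sets kept their direction under median centring and quantile normalization in the 4 comparisons of DES with control.

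The signals carry no detection calls, so a mean near the floor gives only a bound. Pomc is limited most by this.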

Other observations

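The marker lists of other cell types give the surroundings of these genes. With DES on average, where 36.7% of all probe sets were lower and 25.3% higher, 4 of 6 tested neural lobe and axon markers were lower and 0 higher, as were 6 of 6 folliculostellate and stem cell markers, 4 of 5 thyrotroph markers (1 higher), 3 of 5 somatotroph markers (1 higher), 2 of 4 lactotroph markers (1 higher), 4 of 6 fibroblast and matrix markers (1 higher) and 2 of 6 endothelium markers. Of 9 leukocyte and macrophage markers 7 were higher, and of 4 red blood cell markers 1 was higher and 1 lower. The median log2 change was -2.77 for gonadotroph, -1.75 for corticotroph, -1.08 for folliculostellate and 1.30 for leukocyte markers, beside -0.09 over all probe sets. The corticotroph median rests on 4 probe sets, 3 of them those of Tbx19, Pomc and Avpr1b.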
